A study of Triticum aestivum with 24 samples.

Results

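The neighbours of RHT-D1 (TraesCS4D02G040400) on wheat chromosome 4D were the genes whose identifiers run from TraesCS4D02G030400 to TraesCS4D02G050400, 100 gene numbers on each side, without RHT-D1 itself. A row of the expression table was a member when it had at least 0.5 TPM in at least 4 of the 24 libraries. This gave 128 members of 193 rows in the interval and of 63241 genes tested among 107891 rows. The range was set by identifiers and by a minimum level. The question was whether genes beside RHT-D1 set the Rht-D1b line apart from both other lines, as a segment that came with the allele from another parent could.

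The tissue was leaf sheath, cut above the grain and up to the tip of the coleoptile, of seedlings 7 d old, 8 h after treatment with 100 µM GA3 or with water. Rht-D1b was a near-isogenic line in the background of the spring wheat Cadenza, in which RHT-D1 carries a premature stop codon in the region for the DELLA domain. The idd5 line was mutated in all homoeologues of IDD5, which encodes a partner of DELLA proteins, and had been backcrossed to Cadenza, which served as the wild type. Each of the 6 combinations of line and treatment had 4 biological replicates. The wild type was Cadenza and not a sister line of Rht-D1b or of idd5, so differences at other loci of those lines cannot be told apart from the named mutations. The sources used here do not name the donor of the Rht-D1b allele or the length of the segment that came with it. The tissue was not checked against markers, because no source pairs marker names with identifiers of this release.

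DELLA proteins hold back growth, and the plant hormone gibberellin (GA) lifts this by binding its receptor GID1, which then binds the DELLA domain and sends the protein for degradation. The protein made from Rht-D1b lacks this domain, stays active in the presence of GA and shortens the plant, which is why the allele was bred into many modern wheats. When an allele is moved into another variety by backcrossing, genes on both sides of it travel with it until recombination separates them, so a near-isogenic line may carry a stretch of donor chromosome around the selected gene.

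Levels are given as TPM, the abundance of a gene's transcripts relative to all transcripts of its library. Read depth cannot be had from TPM, which is scaled within each library, and is unknown here. Between 56583 and 58700 genes reached 0.5 TPM in a library, and 120 to 126 of the members did. A gene is called here when its adjusted p-value is under 0.01 in limma's test on log2(TPM + 0.5) with Benjamini-Hochberg adjustment over all 63241 genes, and fold changes are on that scale, which understates changes of genes with low TPM. No annotation of these identifiers was at hand, so the members are given by identifier and without a function.

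The members covered a wide range of levels. Their mean over the 24 libraries ran from 0.39 to 300.4 TPM with a median of 6.98 TPM, against a median of 4.21 TPM over all genes tested. Among the 128 members, 108 had at least 0.5 TPM in every library. The members with the fewest libraries at that level had 7 (TraesCS4D02G050000) and 8 (TraesCS4D02G035500 and TraesCS4D02G038000), and the rows outside had at most 2. Of the 65 rows that were left out, 30 had 0 TPM in every library and the others did not exceed 1.99 TPM. The SD of log2(TPM + 0.5) within a group had a median of 0.184 over the members and 0.216 over all genes tested.

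RHT-D1 itself, the DELLA gene at the centre of the interval, had 119.81, 100.13, 116.44 and 100.65 TPM in GA-treated Rht-D1b and 105.93, 103.38, 106.31 and 103.05 TPM in water-treated Rht-D1b. It had 59.08, 46.8, 56.17 and 54.13 TPM in GA-treated idd5, and 50.83 to 57.46 TPM in water-treated idd5. Cadenza had 83.05 to 94.15 TPM after GA3 treatment and 61.52 to 70.59 TPM in water. The 8 Rht-D1b libraries were above all libraries of the other lines. The log2 fold change of Rht-D1b was 1.01 and 0.96 against idd5, and 0.31 and 0.67 against Cadenza, after GA3 and in water (standard error 0.0721 each), and RHT-D1 was called in all 4 comparisons. The gene level does not separate transcripts of the mutant allele from others, and the call against GA-treated Cadenza was lost without GA-treated Cadenza replicate 1 or 2 or GA-treated Rht-D1b replicate 1 or 3 (adjusted p in limma's test 0.0155 to 0.0195).

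Only 1 of the 128 members set the Rht-D1b line apart from both other lines under both treatments. This was TraesCS4D02G048400, the 50th tested gene after RHT-D1. In GA-treated Rht-D1b it had 2.63, 2.34, 2.52 and 2.74 TPM, and in water-treated Rht-D1b 2.23, 2.59, 1.98 and 2.54 TPM. The idd5 libraries had 0.18, 0.22, 0.22 and 0.17 TPM after GA3 treatment and 0.32, 0.19, 0.15 and 0.23 TPM in water. Those of Cadenza had 0.24, 0.27, 0.34 and 0.16 TPM after GA3 treatment and 0.13, 0.16, 0.12 and 0.53 TPM in water. The gene was low in all 16 libraries of the other lines, and no Rht-D1b library overlapped with them. Against Cadenza the log2 fold change was 2.03 after GA3 and 1.98 in water, and against idd5 it was 2.13 and 1.97 (standard error 0.151 each). The log2 fold change of idd5 against Cadenza was -0.10 and 0.00.

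TraesCS4D02G048400 reached the minimum level through its Rht-D1b libraries and 1 Cadenza library, so that its presence among the members depended on the line in which it was high. Its place among them and the counts it enters are therefore a description, and its test is given without the minimum level. When all 88642 genes with a value above 0 in any library were tested, it was called in all 4 Rht-D1b comparisons (adjusted p from 3.82e-09 to 1.39e-08 in limma's test). Across all genes tested, 0.112% met the same rule of a call in all 4 Rht-D1b comparisons in one direction (71 genes), and the share of the members was 0.781%, which is 1 gene. By the count of libraries that do not overlap, 1 member had its 8 Rht-D1b libraries apart from the 16 others, beside 0.262% of all genes tested. The same held for 1 of 155 neighbours of RHT-A1 (0.645%) and 0 of 143 neighbours of RHT-B1. Along the rest of chromosome 4D it held for 21 of 2317 genes (0.906%).

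**Figure D1:**
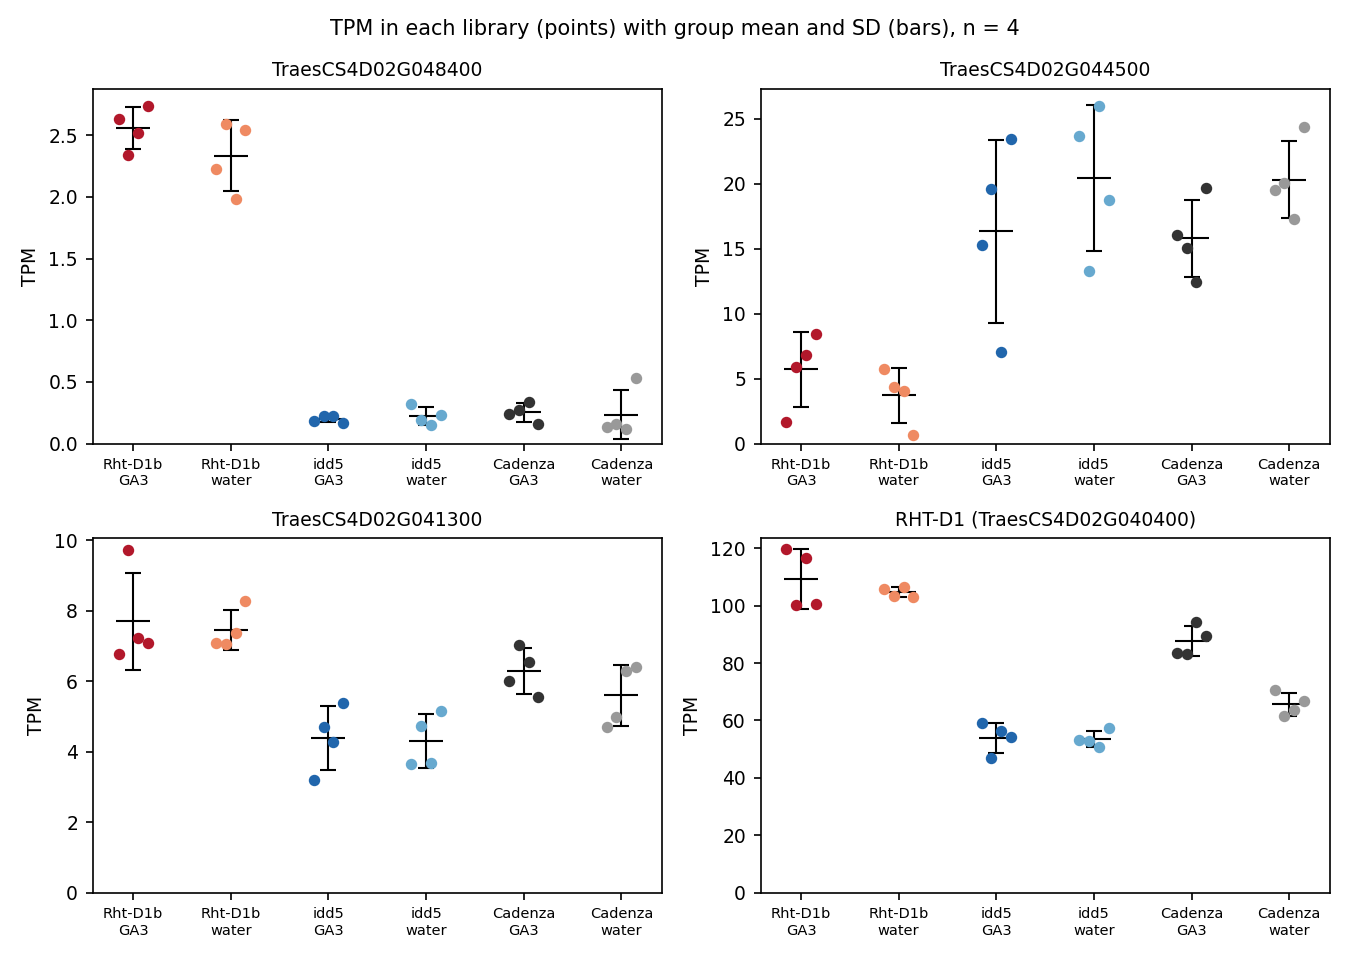
TPM in each library (points) with the group mean and SD (bars, n = 4) for TraesCS4D02G048400, TraesCS4D02G044500, TraesCS4D02G041300 and RHT-D1, in GA-treated and water-treated Rht-D1b, idd5 and Cadenza. TraesCS4D02G048400 lies between 1.98 and 2.74 TPM in Rht-D1b and at no more than 0.53 TPM in the other lines, while single libraries overlap between lines for TraesCS4D02G044500 and TraesCS4D02G041300.

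A further 3 members passed the threshold between Rht-D1b and idd5 in at least 1 treatment, and were singled out after their values had been seen. In all, 3 members were called against idd5 after GA3, all higher (2.34% of the members, beside 0.727% of all genes tested), and 3 in water, 2 higher and 1 lower (2.34% beside 0.455%). TraesCS4D02G048400 and TraesCS4D02G041300 were called in both treatments, which 0.353% of all genes tested were. With TraesCS4D02G038700, called after GA3, and TraesCS4D02G044500, called in water, 4 members were called in either treatment, beside 0.83% of all genes tested. Of these, only TraesCS4D02G048400 was called when the fit was made from the libraries of the groups compared alone.

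TraesCS4D02G044500, the 16th tested gene after RHT-D1, was lower in Rht-D1b than in both other lines in water and passed the threshold in neither comparison after GA3. GA-treated Rht-D1b had 1.67, 5.90, 6.81 and 8.42 TPM, and water-treated Rht-D1b had 5.72, 4.35, 4.04 and 0.67 TPM. In idd5 it had 15.29, 19.59, 7.04 and 23.41 TPM after GA3 treatment and 23.63, 13.30, 25.94 and 18.73 TPM in water. Cadenza had 16.06, 15.06, 12.40 and 19.62 TPM after GA3 treatment and 19.53, 20.03, 17.25 and 24.33 TPM in water. All Rht-D1b libraries were below all Cadenza libraries, and the overlap with idd5 came from 1 GA-treated idd5 library at 7.04 TPM. The spread between Rht-D1b libraries was wide, with single libraries of both treatments far below the rest.

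The log2 fold change of TraesCS4D02G044500 in water was -2.54 against Cadenza (adjusted p = 0.000731 in limma's test) and -2.51 against idd5 (adjusted p = 0.00336), with a standard error of 0.444. After GA3 it was -1.55 against Cadenza (adjusted p = 0.0203 in limma's test) and -1.50 against idd5 (adjusted p = 0.0912). The call against idd5 in water was lost without water-treated Rht-D1b replicate 4 (-1.98, adjusted p = 0.0103 in limma's test), without water-treated idd5 replicate 1 (adjusted p = 0.0158) and without water-treated idd5 replicate 3 (adjusted p = 0.0177). Without GA-treated idd5 replicate 3, or without GA-treated Rht-D1b replicate 4, the Rht-D1b libraries no longer overlapped with any other library.

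TraesCS4D02G041300, the 6th tested gene after RHT-D1, was higher in Rht-D1b than in idd5. It had 6.76, 9.73, 7.23 and 7.08 TPM in GA-treated Rht-D1b and 7.09, 7.07, 7.37 and 8.27 TPM in water-treated Rht-D1b. In idd5 it had 3.19, 4.69, 4.28 and 5.37 TPM after GA3 treatment and 3.66, 4.73, 3.68 and 5.17 TPM in water, and Cadenza lay between 4.71 and 7.04 TPM. No idd5 library overlapped with Rht-D1b, and the Cadenza libraries overlapped with both. The log2 fold change against idd5 was 0.75 after GA3 (adjusted p = 0.00493 in limma's test) and 0.74 in water (adjusted p = 0.00835), with a standard error of 0.143. Against Cadenza it was 0.27 and 0.39 and was not called (adjusted p 0.243 and 0.0948 in limma's test).

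Its call against idd5 in water was lost in 16 of the 24 fits with 1 library left out (adjusted p up to 0.0448 in limma's test), and that after GA3 in 5 of them (up to 0.0244). TraesCS4D02G038700, the 14th tested gene before RHT-D1, was called between idd5 and Cadenza, and not between Rht-D1b and Cadenza. It had 47.88 to 57.98 TPM in GA-treated Rht-D1b, 35.67 to 46.4 TPM in GA-treated idd5 and 45.91 to 52.79 TPM in GA-treated Cadenza. The log2 fold change of idd5 against Cadenza was -0.36 after GA3 and -0.41 in water (standard error 0.083; adjusted p = 0.00414 and 0.00225 in limma's test), and that of Rht-D1b against Cadenza was 0.05 and -0.11. The calls against Cadenza were lost in 6 of the 24 fits with 1 library left out after GA3 and in 2 in water (adjusted p up to 0.0198 in limma's test), and that after GA3 also with median-ratio scaling. Its call between Rht-D1b and idd5 after GA3 (0.41, adjusted p = 0.00903) was lost in 18 of the 24 fits with 1 library left out.

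The genes next to RHT-D1 passed no threshold between Rht-D1b and idd5. Of the 5 tested members nearest on each side, 0 were called in limma's test against idd5 in either treatment, and 3 had an unadjusted p under 0.05 there. Over all genes tested, 0.83% were called against idd5 in either treatment, so 0 calls among so few genes do not set them apart. The 3 with an unadjusted p under 0.05 were TraesCS4D02G040700 in both treatments, TraesCS4D02G041100 after GA3 and TraesCS4D02G040300 in water. In limma's test an unadjusted p under 0.05 was found for 13.9% of all genes tested after GA3 and 11.8% in water. These are shares of single treatments, and the share in either treatment was not counted. The nearest of all, TraesCS4D02G040300, is 1 gene number before RHT-D1 and was called below Cadenza in 1 treatment in each mutant. It had 2.23, 2.40, 1.69 and 1.92 TPM in GA-treated Rht-D1b and 0.90, 1.81, 2.39 and 1.99 TPM in water-treated Rht-D1b. The idd5 libraries had 1.28 to 2.73 TPM after GA3 treatment and 2.20 to 2.91 TPM in water, and those of Cadenza 3.11 to 4.47 and 2.96 to 3.80 TPM. Every Rht-D1b library was thus below every Cadenza library, but not below those of idd5.

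The difference of TraesCS4D02G040300 from Cadenza was called for Rht-D1b in water (log2 fold change -0.86, standard error 0.194, adjusted p = 0.00629 in limma's test) and for idd5 after GA3 (-0.79, adjusted p = 0.0063). Both calls were lost with median-ratio scaling, and each in 5 of the 24 fits with 1 library left out (adjusted p up to 0.0294 in limma's test). It missed the threshold for Rht-D1b after GA3 (-0.75, adjusted p = 0.0102 in limma's test) and for idd5 in water (-0.38, adjusted p = 0.252). On the other side the nearest tested member, TraesCS4D02G040700, had 6.51 to 8.17 TPM in GA-treated Rht-D1b, 9.42 to 10.69 TPM in GA-treated idd5 and 8.15 to 9.30 TPM in GA-treated Cadenza. Its log2 fold change against idd5 after GA3, -0.43, was not called (adjusted p = 0.0379 in limma's test).

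Of the other near neighbours, TraesCS4D02G040800 and TraesCS4D02G041200 differed from Cadenza in both mutants and are described below. TraesCS4D02G041100 was lower in idd5 than in Cadenza after GA3, with 6.01 to 7.32 TPM against 8.59 to 10.68 TPM (log2 fold change -0.44, adjusted p = 0.00685 in limma's test). This call was lost with median-ratio scaling and in 5 of the 24 fits with 1 library left out (adjusted p 0.0146 to 0.0309 in limma's test), and in water the gene was not called (-0.22, adjusted p = 0.24). TraesCS4D02G039700, TraesCS4D02G039900, TraesCS4D02G040000, TraesCS4D02G040200 and TraesCS4D02G040900 were called in none of the 6 comparisons between lines. The log2 fold changes of these 5 genes in Rht-D1b lay between -0.21 and 0.12 against idd5, and between -0.16 and 0.55 against Cadenza. TraesCS4D02G040700 was also called in none of the 6 comparisons. After GA3 and in water it had -0.43 and -0.27 against idd5, and -0.23 and -0.06 against Cadenza. Over all genes tested, 13.7% were called in at least 1 of these comparisons.

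More members were called between Rht-D1b and Cadenza than between Rht-D1b and idd5. After GA3, 17 members were called against Cadenza (13.3%, 8 higher and 9 lower), beside 8.02% of all genes tested, and in water 12 (9.38%, 6 higher and 6 lower), beside 3.92%. The idd5 line gave 17 members against Cadenza after GA3 (13.3%, 8 higher and 9 lower), beside 9.41%, and 9 in water (7.03%, 5 higher and 4 lower), beside 4.73%. Rht-D1b and idd5 were set against the same Cadenza libraries, so the counts of these comparisons are not independent. In all, 27 members (21.1%) were called in at least 1 of the 6 comparisons between lines, beside 13.7% of all genes tested, and 101 in none. The median log2 fold change of the members was -0.11 after GA3 and -0.10 in water for Rht-D1b against Cadenza, where all genes tested had -0.04 and -0.07. Against idd5 the members had a median of -0.03 in both treatments, and all genes tested 0.01 and -0.01.

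**Figure D2:**
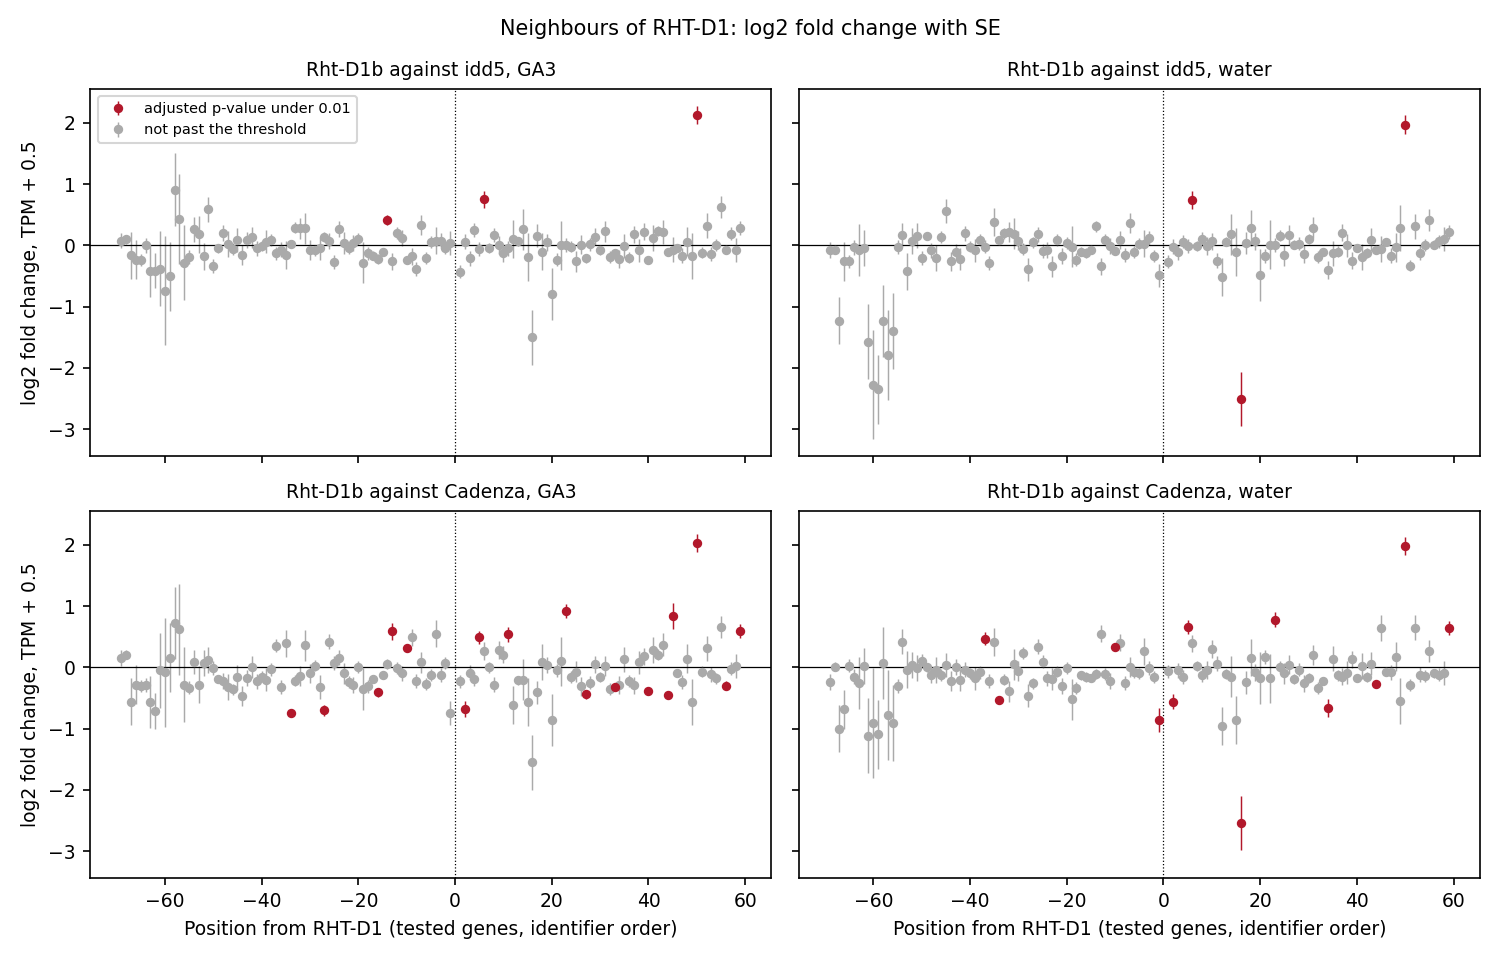
Log2 fold change with its standard error for the 128 members in the order of their identifiers, counted in tested genes from RHT-D1 (dotted line at 0), for Rht-D1b against idd5 (top) and against Cadenza (bottom), after GA3 (left) and in water (right). Red points are called at an adjusted p-value under 0.01, and TraesCS4D02G048400 at position 50 is the single red point that stands near 2 in all 4 panels.

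In Rht-D1b, 8 members (6.25%) were called against Cadenza in both treatments, beside 3.13% of all genes tested. They included TraesCS4D02G048400 and 5 that were called in the same direction in idd5. These 5 set Cadenza apart from both mutants. Over all genes tested, 1.82% were called in this way, and the 5 are 3.91% of the members. Near RHT-B1 it was 4 of 143 genes (2.8%) and near RHT-A1 1 of 155 (0.645%). TraesCS4D02G045400, the 23rd tested gene after RHT-D1, had 36.55, 26.97, 29.92 and 36.12 TPM in GA-treated Rht-D1b and 30.60, 30.19, 29.03 and 38.75 TPM in GA-treated idd5, against 15.15, 16.84, 16.59 and 18.42 TPM in GA-treated Cadenza. In water it had 26.9 to 35.33 TPM in Rht-D1b, 27.44 to 34.86 TPM in idd5 and 14.22 to 19.69 TPM in Cadenza. The mutants overlapped with each other and in no library with Cadenza. The log2 fold change against Cadenza after GA3 and in water was 0.92 and 0.78 in Rht-D1b and 0.91 and 0.77 in idd5 (standard error 0.119 each), and between Rht-D1b and idd5 it was 0.01 in both treatments.

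TraesCS4D02G041200 was also higher in both mutants. It had 61.59 to 83.31 TPM in GA-treated Rht-D1b, 59.76 to 87.38 TPM in GA-treated idd5 and 43.16 to 59.79 TPM in GA-treated Cadenza, where the highest Cadenza and the lowest idd5 library met. Its log2 fold changes against Cadenza after GA3 and in water were 0.49 and 0.66 in Rht-D1b and 0.56 and 0.67 in idd5 (standard error 0.109), and the call in GA-treated Rht-D1b was lost without GA-treated Cadenza replicate 1, 2 or 3 or GA-treated Rht-D1b replicate 4 (adjusted p 0.0111 to 0.0169 in limma's test). TraesCS4D02G039100, one of the 3 members with the highest level, had 161.54 to 194.24 TPM in GA-treated Rht-D1b, 193.45 to 214.35 TPM in GA-treated idd5 and 126.96 to 151.01 TPM in GA-treated Cadenza. It was higher than Cadenza by 0.32 and 0.34 in Rht-D1b and by 0.57 and 0.43 in idd5 on the log2 scale (standard error 0.0658), with an adjusted p of 0.0113 in limma's test for water-treated Rht-D1b without its replicate 1.

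The remaining pair was lower in both mutants. TraesCS4D02G035100 had 19.69, 19.33, 21.24 and 19.08 TPM in GA-treated Rht-D1b and 18.94, 17.28, 21.82 and 20.09 TPM in GA-treated idd5, against 31.96, 33.90, 37.36 and 31.88 TPM in GA-treated Cadenza. Its log2 fold changes after GA3 and in water were -0.75 and -0.53 in Rht-D1b and -0.78 and -0.62 in idd5 (standard error 0.0651). TraesCS4D02G040800, 4 gene numbers after RHT-D1, had 14.2 to 22.94 TPM in GA-treated Rht-D1b, 15.04 to 20.02 TPM in GA-treated idd5 and 26.56 to 33.11 TPM in GA-treated Cadenza. Its log2 fold changes after GA3 and in water were -0.68 and -0.56 in Rht-D1b and -0.74 and -0.55 in idd5 (standard error 0.124), and both calls in water were lost with median-ratio scaling (adjusted p 0.0195 and 0.0187 in limma's test) and without any 1 of the 4 water-treated Cadenza libraries. That of Rht-D1b was also lost without its replicate 1 or 3, and that of idd5 without its replicate 2, 3 or 4 (adjusted p up to 0.0269 in limma's test). In a fit of only the groups compared, TraesCS4D02G045400 and TraesCS4D02G035100 kept all their calls against Cadenza, whereas TraesCS4D02G041200, TraesCS4D02G039100 and TraesCS4D02G040800 each lost at least 1.

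**Figure D3:**
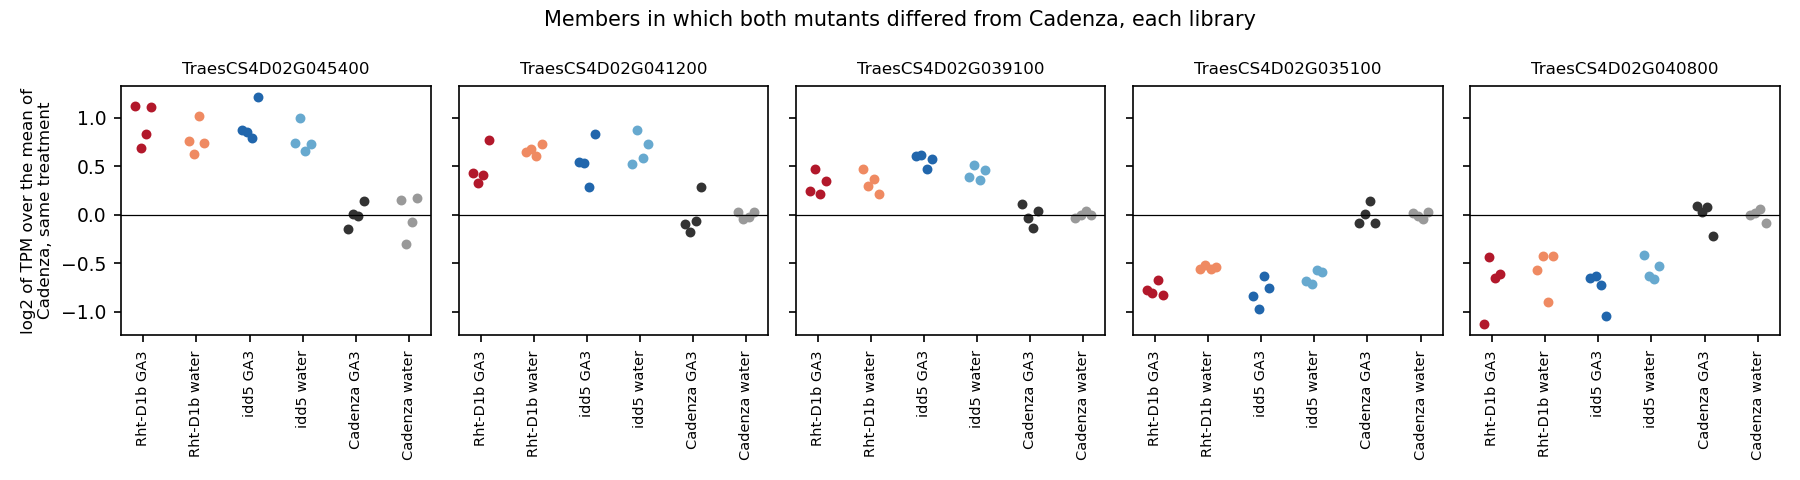
Log2 of TPM over the mean of the 4 Cadenza libraries of the same treatment, for each library of the 5 members in which Rht-D1b and idd5 both differed from Cadenza in both treatments. Points of Rht-D1b and of idd5 lie on the same side of the Cadenza line at 0 for every gene, above it for TraesCS4D02G045400, TraesCS4D02G041200 and TraesCS4D02G039100 and below it for TraesCS4D02G035100 and TraesCS4D02G040800.

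By the libraries alone, 8 members (6.25%) had all 8 Cadenza libraries above or all below the 16 of the mutants. The share was 2.86% of all genes tested, 3.5% near RHT-B1 and 1.94% near RHT-A1. No member set idd5 apart from both other lines in this way by the 4 tests (0 of 128, beside 0.201% of all genes tested), and 37 members (28.9%) had an unadjusted p under 0.05 between idd5 and Cadenza in water, beside 23% of all genes tested. The other members called against Cadenza in both treatments in Rht-D1b were TraesCS4D02G047600 and TraesCS4D02G050400, named here after their values were seen. TraesCS4D02G050400 averaged 13.7 ± 1.35 TPM in GA-treated Rht-D1b, 11.3 ± 2.27 TPM in GA-treated idd5 and 8.84 ± 0.562 TPM in GA-treated Cadenza (SD, n = 4 each). Its log2 fold change in Rht-D1b was 0.60 and 0.64 against Cadenza and 0.28 and 0.22 against idd5 (standard error 0.115), where it was not called (adjusted p 0.253 and 0.467 in limma's test). TraesCS4D02G047600 had log2 fold changes against Cadenza of -0.45 and -0.27 in Rht-D1b and -0.34 and -0.19 in idd5, and the last of these was not called (adjusted p = 0.0524 in limma's test).

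Of the 3 members with the highest level, TraesCS4D02G046400 averaged 273.3 ± 17.2 TPM in GA-treated Rht-D1b, 297.8 ± 11.4 TPM in GA-treated idd5 and 341.6 ± 12.1 TPM in GA-treated Cadenza (SD, n = 4 each). After GA3 its log2 fold change in Rht-D1b against Cadenza passed the threshold (-0.32, standard error 0.0604, adjusted p = 0.000709 in limma's test), and in water it missed the threshold (-0.23, adjusted p = 0.0199). TraesCS4D02G038500 had 124.1 ± 11.5 TPM in GA-treated Rht-D1b, 144.1 ± 9.49 TPM in GA-treated idd5 and 165.2 ± 8.87 TPM in GA-treated Cadenza (SD, n = 4 each). After GA3 it too passed the threshold in Rht-D1b against Cadenza (-0.41, adjusted p = 0.000862 in limma's test), with -0.16 in water (adjusted p = 0.251). Neither gene was called between Rht-D1b and idd5, with adjusted p-values from 0.191 to 0.611 in limma's test.

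A run of 7 members near the start of the interval, TraesCS4D02G030700, TraesCS4D02G031600 to TraesCS4D02G032000 and TraesCS4D02G032200, differed widely between libraries of one group. The run was singled out after its values had been seen, so it is only described. Their mean was 2.30, 1.06, 1.43 and 0.984 TPM in water-treated Rht-D1b, 6.60, 11.9, 9.59 and 0.847 TPM in water-treated idd5 and 4.78, 2.11, 2.65 and 2.36 TPM in water-treated Cadenza. After GA3 treatment it lay between 1.34 and 4.10 TPM in Rht-D1b, between 1.13 and 6.25 TPM in idd5 and between 1.59 and 3.24 TPM in Cadenza. The high level came from 3 of the 4 water-treated idd5 libraries, and the fourth was the lowest of all 24. None of the 7 was called in any comparison. Against idd5 in water their log2 fold changes ran from -2.35 to -1.23, and the smallest adjusted p in limma's test was 0.0467.

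GA3 treatment called 0 members in any line. In Rht-D1b, 8 members (6.25%) had an unadjusted p under 0.05 in limma's test between GA3 and water, beside 5.86% of all genes tested. The calls there were 0, beside 0% of all genes tested. In idd5, 8 members (6.25%) were at that unadjusted level, beside 6.67%, and 0 were called, beside 0%. In Cadenza 12 members (9.38%) were at that level, beside 8.77%. There 0 members were called, beside 0.0965% (smallest adjusted p of a member 0.0278 in limma's test). The difference between Rht-D1b and Cadenza did not change with treatment at the threshold in any member. For this difference 10 members (7.81%) had an unadjusted p under 0.05 in limma's test, beside 5.98% of all genes tested, and 0 were called, beside 0%.

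Among the 6 genes of the GA pathway that the study pairs with identifiers of this release, the homoeologues of RHT and of IDD5, RHT-D1 was the only 1 that was called in all 4 Rht-D1b comparisons. RHT-A1 (TraesCS4A02G271000), a second DELLA gene, averaged 81.8 ± 7.20 TPM in GA-treated Rht-D1b, 71.2 ± 7.01 TPM in GA-treated idd5 and 105.5 ± 6.74 TPM in GA-treated Cadenza (SD, n = 4 each). After GA3 its log2 fold change against Cadenza was -0.37 in Rht-D1b and -0.57 in idd5 (adjusted p = 0.00149 and 1.14e-05 in limma's test). Against Cadenza, 1 of the 6 was higher and 1 lower in Rht-D1b after GA3, and 1 higher and 0 lower in water. Against idd5, 1 was higher and 1 lower in each treatment, and the lower one was IDD5-B1 (TraesCS2B02G218900), a gene mutated in idd5. Between idd5 and Cadenza, 1 was higher and 3 lower after GA3, and 1 higher and 1 lower in water.

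Calls were made on both sides of RHT-D1. Counted in gene numbers from RHT-D1, 38 members were tested 100 to 51 before it, 31 from 50 to 1 before it, 23 from 1 to 50 after it and 36 from 51 to 100 after it. A call against idd5 in either treatment was made for 0, 1, 2 and 1 members of these blocks in the same order. Over all genes tested the share was 0.83%. Against Cadenza, 1, 4, 4 and 8 were called in Rht-D1b after GA3, beside 8.02% of all genes tested. In water 2, 2, 4 and 4 were called, beside 3.92%. In Rht-D1b after GA3 the block furthest before RHT-D1 thus had the fewest calls and the last block the most. For idd5 against Cadenza after GA3 the blocks had 3, 6, 6 and 2 calls, beside 9.41% of all genes tested, and the last block had the fewest. The difference between blocks was not tested. The single member called in all 4 Rht-D1b comparisons was in the last block, 80 gene numbers after RHT-D1, and 49 tested genes without such a call stood between it and RHT-D1.

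The neighbourhoods of the other RHT genes were counted in the same way. Of 143 neighbours of RHT-B1 and 155 of RHT-A1, 0 were called against idd5 in either treatment. Over all genes tested the share was 0.83%, so 0 calls among so few genes do not set them apart. In limma's test, 24 (16.8%) and 17 (11%) had an unadjusted p under 0.05 after GA3, and 24 (16.8%) and 15 (9.68%) in water. Among the 128 neighbours of RHT-D1 these unadjusted counts were 23 after GA3 (18%, beside 13.9% of all genes tested) and 24 in water (18.8%, beside 11.8%). Against Cadenza after GA3, Rht-D1b had 17 calls in each of the 3 neighbourhoods, which is 13.3% near RHT-D1, 11.9% near RHT-B1 and 11% near RHT-A1, beside 8.02% of all genes tested. In water it had 12 calls near RHT-D1 (9.38%), 8 near RHT-B1 (5.59%) and 8 near RHT-A1 (5.16%), beside 3.92%. No test of the difference between neighbourhoods was made.

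Along the rest of chromosome 4D, 13 of 2317 tested genes (0.561%) were called in all 4 Rht-D1b comparisons, 7 higher and 6 lower. With RHT-D1 and TraesCS4D02G048400, chromosome 4D held 15 of the 71 such genes among its 2446 tested genes (0.613%), and chromosome 5D followed with 14 (0.404%). On 4D they were all at RHT-D1 or after it, with 0 among the 256 tested genes before it and 14 among the 2189 after it. Over all genes tested the share was 0.112%, so 0 calls among 256 genes do not set that side apart. The next after TraesCS4D02G048400 were TraesCS4D02G057300, 111 tested genes from RHT-D1, and TraesCS4D02G059800, 132 tested genes from it. The last was TraesCS4D02G185700, 987 tested genes from RHT-D1, and the 1202 tested genes beyond it had none. In blocks of 50 tested genes, 11 of 48 on 4D held such a gene and none more than 2, whereas over all chromosomes 47 of 1235 blocks did (3.81%), with up to 6 in a block.

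**Figure D4:**
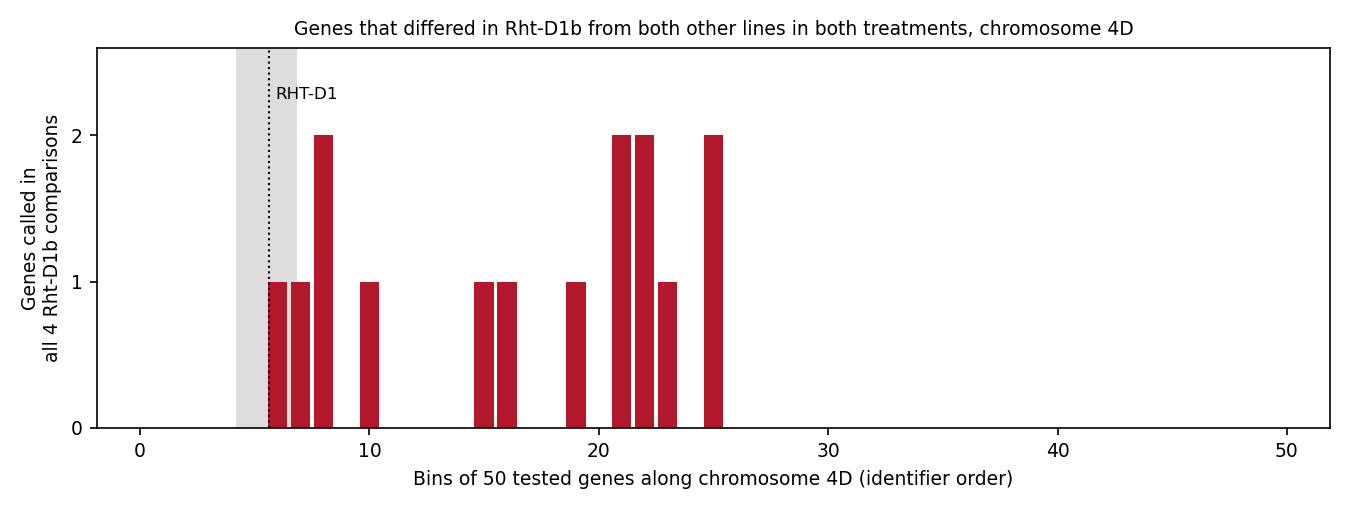
Number of genes called in all 4 Rht-D1b comparisons in one direction (bars) in successive blocks of 50 tested genes along chromosome 4D, in identifier order. The grey band is the span of the 128 members and the dotted line is RHT-D1, which is itself the gene counted in the bar beside the line. No bar stands before RHT-D1 or beyond the block of TraesCS4D02G185700, and over all chromosomes only 3.81% of such blocks held such a gene.

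TraesCS4D02G059800 had a mean of 7.57 TPM in GA-treated Rht-D1b, 0.255 TPM in GA-treated idd5 and 0.205 TPM in GA-treated Cadenza. In the genes TraesCS4D02G057300 and TraesCS4D02G154700 the Rht-D1b line was the lower one. TraesCS4D02G154700, 746 tested genes from RHT-D1, averaged 0.0525 TPM in GA-treated Rht-D1b, 10.1 TPM in GA-treated idd5 and 10.8 TPM in GA-treated Cadenza. TraesCS4D02G114600, also called in all 4 comparisons, averaged 0 TPM in every group of idd5 and Cadenza, and TraesCS4D02G185600 at most 0.155 TPM. Both depended on Rht-D1b libraries to reach the minimum level, so the counts along 4D that they enter are a description. All these genes lie outside the interval and were named after their values were seen.

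The level of the members as a body was given by their median. For the 78 members with at least 5 TPM in Cadenza, each library was given the median of TPM over the Cadenza mean of the same treatment. This median level was 89.7 ± 3.46% in GA-treated Rht-D1b, 92.0 ± 2.04% in GA-treated idd5 and 100 ± 2.69% in GA-treated Cadenza (SD, n = 4 each). In water it was 93.5 ± 3.10% in Rht-D1b, 94.3 ± 0.961% in idd5 and 99.6 ± 2.96% in Cadenza (SD, n = 4 each). The Rht-D1b and idd5 libraries overlapped in both treatments. Neighbours of RHT-B1 had 90.2 ± 3.25% and neighbours of RHT-A1 92.2 ± 3.12% in GA-treated Rht-D1b, and all 28910 genes at that level had 94.6 ± 1.92% (SD, n = 4 each). In GA-treated idd5 all 28910 genes had 94.1 ± 1.57%. In water they had 94.0 ± 1.87% in Rht-D1b and 94.5 ± 1.58% in idd5 (SD, n = 4 each), so the members in water lay near the level of all genes.

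**Figure D5:**
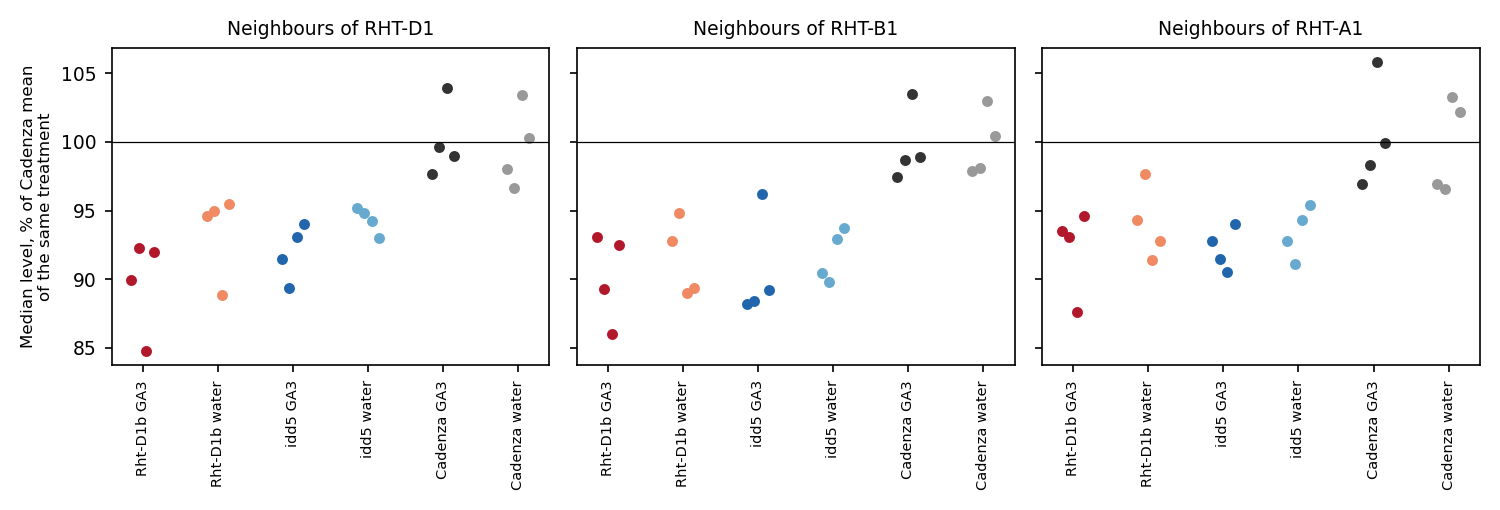
Median level of the genes with at least 5 TPM in Cadenza, as a percentage of the Cadenza mean of the same treatment, in each library (points), for neighbours of RHT-D1 (78 genes), RHT-B1 (85 genes) and RHT-A1 (87 genes). In all 3 neighbourhoods the Rht-D1b and idd5 libraries overlap with each other, and all lie below the Cadenza line at 100.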

How the data were processed

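The authors trimmed the reads with Trimmomatic (version 0.39), quantified them with Kallisto (version not given in the sources used here) and deposited one table of TPM per gene and library. The release of the wheat gene models differs between the methods and the labels, and identifiers are printed as deposited. How Kallisto divided reads among near-identical copies was not analysed here.

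Genes were tested where 4 or more of the 24 libraries had 0.5 TPM or more (63241 genes), and their log2(TPM + 0.5) was fitted in limma (version 3.58.1, R version 4.3.3), with 6 group means, a trend of variance with mean, and Benjamini-Hochberg adjustment at an adjusted p-value of 0.01. The code was tested on simulated data. Figures were drawn with matplotlib (version 3.10.9). The members, lists and tests were chosen with earlier results of these data known.

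Genes were named where a member was called in all 4 Rht-D1b comparisons, set idd5 or Cadenza apart in the same way (at most 6 each), was among the 5 nearest to RHT-D1 on a side or among the 3 of highest mean, besides RHT-D1. Others were chosen after their values were seen. Alternatives were pseudocounts of 0.1 and 1, no filter, a filter at 2 TPM, median-ratio scaling, other thresholds and fits, a block for the replicate number, and each library left out.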

Additional observations from a re-analysis of the deposited data

Results flagged for a closer look

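Among 132 groups of 4 libraries examined for the named genes and the median level, 7 had 1 library apart from the other 3, and chance alone gives about 1 in 20. TraesCS4D02G048400 had 0.53 TPM in water-treated Cadenza replicate 4, where the others had 0.12 to 0.16 TPM, and this library stayed below every Rht-D1b library. TraesCS4D02G041300 had 9.73 TPM in GA-treated Rht-D1b replicate 2, against 6.76 to 7.23 TPM in the others, and without it the call against idd5 after GA3 was lost (log2 fold change 0.64, adjusted p = 0.0227 in limma's test). TraesCS4D02G045400 had 38.75 TPM in GA-treated idd5 replicate 4 (others 29.03 to 30.6 TPM), and TraesCS4D02G046400 had 298.88 TPM in GA-treated Rht-D1b replicate 2 (others 261.28 to 267.44 TPM). On the low side, TraesCS4D02G039900 had 1.11 TPM in GA-treated Cadenza replicate 1 (others 2.03 to 2.2 TPM), and TraesCS4D02G041100 had 5.4 TPM in water-treated idd5 replicate 4 (others 7.54 to 7.8 TPM). The median level of the members was 88.85% in water-treated Rht-D1b replicate 3, against 94.62 to 95.47% in the other libraries of that group.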

How the results depend on the processing

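The count of members called in all 4 Rht-D1b comparisons was 1 under every alternative and with each library left out, and the gene was TraesCS4D02G048400 each time. A fit of only the groups compared gave 7 members (after GA3) and 5 (in water) for Rht-D1b against Cadenza, 1 and 1 for Rht-D1b against idd5, and 7 for idd5 against Cadenza after GA3, where the joint fit gave 17, 12, 3, 3 and 17. Over all genes tested the fit of only the groups compared gave 2020, 1308, 131, 141 and 2871 calls in these comparisons. The joint fit gave 5073, 2478, 460, 288 and 5949. At an adjusted p-value of 0.05 the counts of members were 29 for Rht-D1b against Cadenza after GA3, 5 for Rht-D1b against idd5 after GA3, and 28 and 14 for idd5 against Cadenza after GA3 and in water. Over all genes tested they were 9108, 1212, 10227 and 5942 at that threshold.

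With each library left out in turn, the counts ran from 12 to 20 and from 6 to 12 for Rht-D1b against Cadenza after GA3 and in water, from 1 to 3 and from 1 to 5 for Rht-D1b against idd5, and from 11 to 17 and from 6 to 10 for idd5 against Cadenza. In water the count against Cadenza was 6 without water-treated Rht-D1b replicate 1 and 7 without water-treated Cadenza replicate 3. Over all genes tested these fits gave 1685 and 1602 calls instead of 2478. The count against idd5 after GA3 was 1 without GA-treated Rht-D1b replicate 3 and without GA-treated idd5 replicate 1 or 2. Over all genes tested these fits gave 324, 345 and 299 calls instead of 460. In water the count against idd5 was 1 without water-treated Rht-D1b replicate 4 or water-treated idd5 replicate 1 or 3, and 5 without water-treated idd5 replicate 4. Over all genes tested these fits gave 229, 233, 219 and 282 calls instead of 288. Without GA-treated Cadenza replicate 3 the count for idd5 against Cadenza after GA3 was 11, and over all genes tested it was 4120 instead of 5949. Members whose Rht-D1b libraries did not overlap with the others numbered 1 to 2, and the second was TraesCS4D02G041300, TraesCS4D02G044500 or TraesCS4D02G047300.

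Median-ratio scaling moved the median log2 fold change of all genes by at most 0.062, and the median level of the members to 98.6% in water-treated Rht-D1b, 96.4% in GA-treated idd5 and 98.6% in water-treated idd5. Of 3960 recomputed log2 fold changes of named genes, 0 reversed, 120 lost a call, 22 gained one and 1 uncalled value changed sign by more than its standard error. The deviations of libraries with the same replicate number correlated from -0.162 to 0.155 over 60 pairs. Their mean correlation was 0.0124, and that of libraries with other numbers was -0.00416. Of the 24 libraries, 8 correlated best with their own number. No clear pairing by replicate number was seen, but correlations this weak cannot exclude one. With the replicate number as a block, 67 genes instead of 71 were called in all 4 Rht-D1b comparisons, with 1 member among them. TPM keeps no depth, so the precision of low levels rests on the 4 replicates.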
